A study of Sus scrofa with 12 samples.

Results

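The 10 genes described here, of fatty acid and triglyceride synthesis, were followed in the longissimus dorsi muscle of 12 Iberian pigs. The members were fixed by name, as the deposited gene identifiers that carry the symbols ACLY, ME1, ACACA, FASN, ELOVL5, ELOVL6, SCD, DGAT1, DGAT2 and SREBF1. All 10 were listed among the 25880 genes of the count tables, and all 10 were among the 13373 genes that passed the filter on low counts and were tested.

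Lipogenesis turns surplus carbon into stored fat. Cytosolic acetyl-CoA and NADPH are joined into palmitate, which is then elongated, desaturated and esterified to glycerol. In pigs the adipose tissue is the main site of this synthesis, and in skeletal muscle the fat is held mostly by adipocytes that lie between the fibres. The product of SCD, oleic acid, is the fatty acid for which the meat of Iberian pigs fed on acorns is best known.

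The samples came from castrated male Iberian pigs of a closed commercial population, without full siblings, fattened outdoors on acorns and grass. The High MB group (n = 6) and the Low MB group (n = 6) held the pigs with the highest and the lowest estimated breeding values for myoglobin, the red oxygen-binding pigment of muscle, and no pig carried a transgene or received a treatment. Mean muscle myoglobin was 2.48 mg/g in the High and 1.39 mg/g in the Low MB pigs, with SDs of 0.0657 and 0.147 mg/g. The model behind the breeding values took the percentage of intramuscular fat as a covariate, and the fat percentage of single pigs was not analysed here. Each pig gave 1 library of total RNA from a piece of loin, so that p-values measure the spread between pigs.

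Reads assigned to genes summed to between 38914271 and 91318334 per library. By depth, 5 libraries were deep (at least 59227608 counts, pigs 4 and 6 of the High and pigs 1, 5 and 6 of the Low MB group) and 7 were standard (at most 40001432 counts), and the group differences are also given within each class. The muscle fibre genes ACTA1, CKM and DES reached means of 40410, 14744 and 6781 CPM in the High MB group and 47817, 16547 and 6765 CPM in the Low MB group. High MB pigs ranged from 18547 to 51922 CPM for ACTA1 and from 7455 to 17279 CPM for CKM. Low MB pigs ranged from 34001 to 73321 and from 12797 to 23794 CPM. CPM are counts scaled to a common library total with the TMM factors. In a piece of tissue, fewer cells of a type and less RNA per cell cannot be told apart.

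The promoters of 4 genes are shown because SCD, ELOVL5 and DGAT2 were correlated from pig to pig in a permutation test, and because SREBF1 encodes a transcription factor of lipogenic genes. Each sequence holds the 250 bases before the start of the RefSeq gene on Sscrofa11.1, in the direction of transcription. Capitals mark matches, on either strand, to 4 motifs that are spelled out after the sequences.
SCD: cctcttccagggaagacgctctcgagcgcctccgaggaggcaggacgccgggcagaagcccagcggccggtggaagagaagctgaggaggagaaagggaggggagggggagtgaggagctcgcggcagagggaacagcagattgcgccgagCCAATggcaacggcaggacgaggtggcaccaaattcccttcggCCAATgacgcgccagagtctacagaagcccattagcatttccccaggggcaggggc
ELOVL5: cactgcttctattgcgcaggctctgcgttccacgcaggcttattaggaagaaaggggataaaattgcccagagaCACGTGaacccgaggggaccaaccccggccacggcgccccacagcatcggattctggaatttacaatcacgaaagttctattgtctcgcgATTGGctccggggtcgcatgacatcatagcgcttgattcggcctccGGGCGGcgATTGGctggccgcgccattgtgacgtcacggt
DGAT2: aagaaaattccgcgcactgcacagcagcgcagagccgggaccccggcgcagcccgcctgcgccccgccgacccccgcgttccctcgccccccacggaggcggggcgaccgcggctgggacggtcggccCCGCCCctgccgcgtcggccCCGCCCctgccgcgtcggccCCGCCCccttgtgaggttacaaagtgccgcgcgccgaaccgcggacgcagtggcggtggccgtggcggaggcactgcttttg
SREBF1: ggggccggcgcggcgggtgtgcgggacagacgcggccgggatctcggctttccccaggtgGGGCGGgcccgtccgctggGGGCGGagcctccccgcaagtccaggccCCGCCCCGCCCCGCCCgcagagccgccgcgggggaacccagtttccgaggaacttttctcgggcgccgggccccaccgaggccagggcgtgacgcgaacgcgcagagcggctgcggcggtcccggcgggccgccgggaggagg
The windows lie at chr14:111461310-111461559 on the plus strand for SCD, chr7:46932946-46933195 on the minus strand for ELOVL5, chr9:10031913-10032162 on the plus strand for DGAT2 and chr12:60733717-60733966 on the plus strand for SREBF1. The CCAAT box, spelled as its name, stood in the promoters of SCD, ACLY, ELOVL5 and ELOVL6, and in 31.9% of 19531 promoters of the same length. The GC box (GGGCGG) stood in those of ACACA, ACLY, ME1, ELOVL5, ELOVL6, DGAT1, DGAT2 and SREBF1, and in 45.9% of all promoters. Only ELOVL5 had an E-box (CACGTG) among the 10 genes, against 6.39% of all promoters. The sterol regulatory element (TCACNCCAC) was found in 0 of the 10 windows and in 0.804% of all promoters, and the promoter of FASN matched none of the motifs. A match describes these letters only, and several copies of the GC box in SREBF1 overlap each other.

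The study designed primers for 3 of the genes, which show where in each transcript they were measured by PCR.
SCDF: aatgccacctggctggtaaa
SCDR: gtggaagccctcacccacag
ELOVL5F: cttgccgggggattttggttg
ELOVL5R: ttgcgcaggatgaagaagaaggtg
DGAT2F: cgtgctgcgggagtacctgatgtc
DGAT2R: tcggctgcaccacccaccac
All 6 matched coding sequence of RefSeq transcripts. The SCD pair lay in exon 5 and across the junction of exons 5 and 6 of 6 (chr14:111470906-111470925 and chr14:111471006-111473993). For ELOVL5 the primers lay in exons 3 and 5 of 8 (chr7:46882566-46882586 and chr7:46868904-46868927), and for DGAT2 in exons 5 and 6 of 9 (chr9:10061693-10061716 and chr9:10062369-10062388). The PCR values were not analysed here.

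The members differed both in their level and in their spread between pigs. Per kilobase of exon, DGAT1 had the highest mean with 17.7 ± 1.71 CPM per kb (SD, n = 12), followed by ME1 (15.4 ± 2.59), SREBF1 (9.67 ± 3.24), SCD (7.60 ± 7.04), FASN (6.84 ± 6.91), ACLY (3.66 ± 1.02), DGAT2 (3.49 ± 2.38), ELOVL5 (2.13 ± 0.922), ELOVL6 (1.33 ± 0.798) and ACACA (0.841 ± 0.326). Neighbours in this order were compared within pigs, by an exact two-sided permutation test that flips the sign of each pig's log2 ratio, with adjustment over the 9 pairs. ELOVL5 was above ELOVL6 in 12 of 12 pigs (exact permutation p = 0.000488, the smallest the test can give, adjusted p = 0.00439) and DGAT1 was above ME1 in 11 of 12 (mean log2 ratio 0.22, adjusted permutation p = 0.00732). ME1 against SREBF1 (10 of 12 pigs, adjusted permutation p = 0.00732) and ELOVL6 against ACACA (11 of 12 pigs, adjusted permutation p = 0.0198) also passed. The other 5 neighbouring pairs, from SREBF1 and SCD down to DGAT2 and ELOVL5, did not pass, with adjusted permutation p from 0.0633 to 0.497. The pairs were taken from the order in these same data, and the test does not measure error in the RefSeq exon lengths. In CPM without division by length, mean ELOVL6 lay above ELOVL5 in the High (7.89 against 7.54) and Low MB group (6.21 against 4.83). Mean ACACA (11.4 and 8.85 CPM) lay above ELOVL6 in both groups. On the same 12 pigs, the highest level divided by the lowest was 17.4 for DGAT2, 16.9 for FASN, 15.8 for SCD, 7.14 for ELOVL6 and 5.40 for ELOVL5. It was 3.97 for ACACA, 3.05 for SREBF1, 2.41 for ACLY, 1.81 for ME1 and 1.39 for DGAT1. In the SD of log2 CPM, SCD stood at percentile 98.5 of the 13373 genes tested, FASN at 97.8 and DGAT2 at 97.7, whereas DGAT1 stood at percentile 3.82. DGAT1 and DGAT2, which catalyse the same final step, thus stood near opposite ends of this order.

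**Figure D1:**
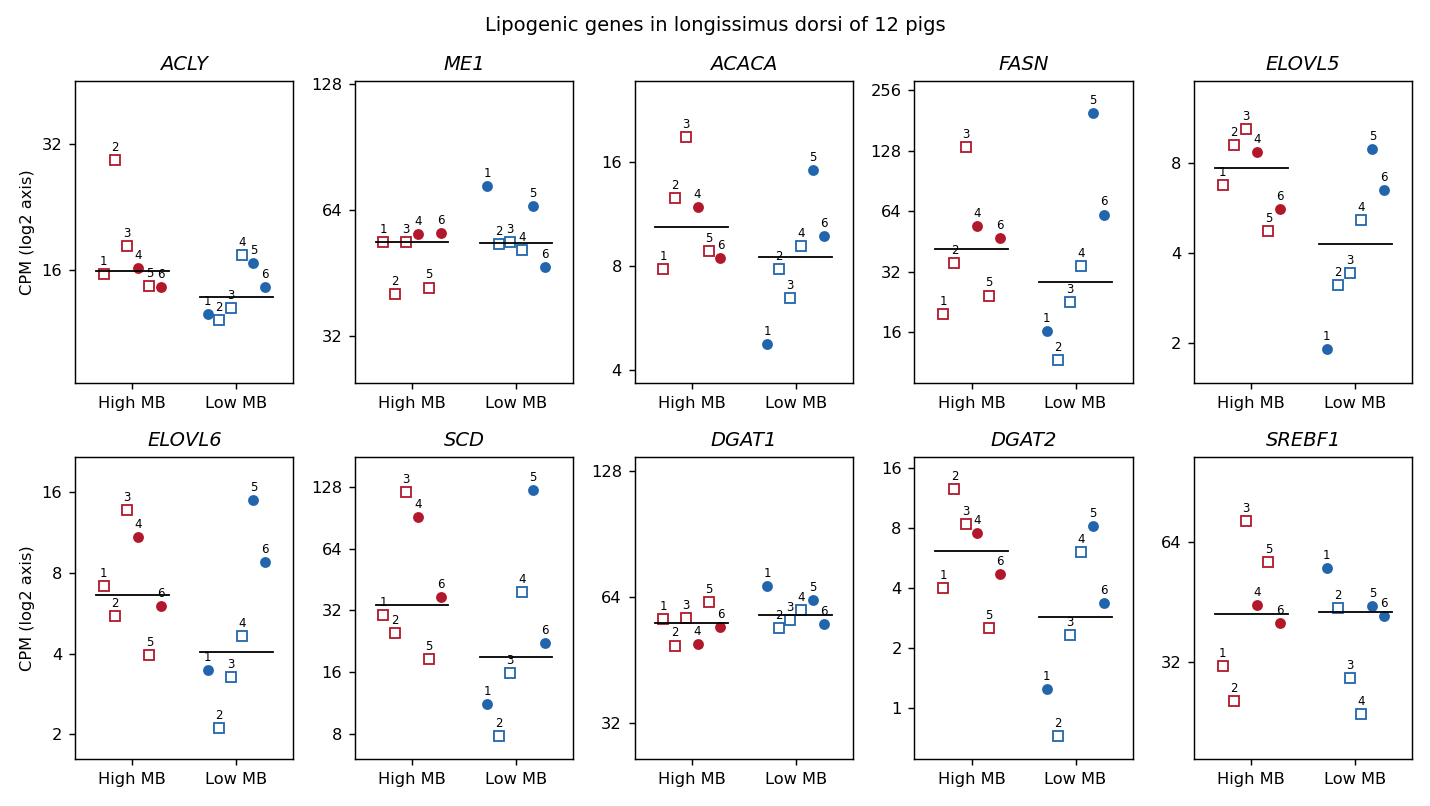
CPM of each gene (log2 axis) in the 6 High MB and 6 Low MB pigs, with the pig's number above each point, filled circles for deep and open squares for standard libraries, and a line at the group median. High MB pig 3 and Low MB pig 5 sit high in most panels, the groups overlap in every panel, and DGAT1 and ME1 vary least.

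Between the High and Low MB groups, 0 of the 10 genes were called differentially expressed. To be called, a gene needed a log2 fold change beyond 0.58 in either direction and an adjusted p (Benjamini-Hochberg, over all genes tested) below 0.10 in edgeR's quasi-likelihood test, and 0.0% of the 13373 genes were called. By DESeq2, 29 genes were called, none of them among the 10. Of the 10 genes, 0 had an unadjusted p under 0.05 by edgeR, while among all genes 5.33% did so with higher and 3.13% with lower levels in High MB pigs. DESeq2 gave 1 of the 10 at that limit, ELOVL5 (adjusted p = 0.512), beside 3.84% higher and 1.78% lower of all 25880 listed genes. Of these, 19220 had any count, so the DESeq2 shares have another base than those of edgeR and are lowered by genes without reads. The count of the 10 genes at that limit depended on Low MB pig 5. Without it 5 of the 10 genes, SCD, ACACA, ELOVL5, ELOVL6 and DGAT2, were higher at an unadjusted p under 0.05 by edgeR, beside 6.13% of all genes, with 0 called and a smallest adjusted p of 0.451, and leaving out any other single pig gave at most 1. Without both High MB pig 3 and Low MB pig 5 it was 3 (SCD, ELOVL5 and DGAT2), beside 6.69% of all genes. Log2 fold changes were above 0 for 7 genes and below 0 for FASN, ME1 and DGAT1. Their median was 0.33, beside -0.02 over all genes tested, of which 46.9% were above 0. The groups overlapped in CPM for every member, whereas 0.426% of all genes had groups that did not overlap.

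The start of the pathway supplies acetyl-CoA and reducing power. ACLY (ENSSSCG00000017421, chr12:20796678-20841301) encodes ATP citrate lyase, which releases acetyl-CoA from citrate. It ranged from 14.5 to 29.2 CPM in the High MB group (median 15.9) and from 12.1 to 17.3 CPM in the Low MB group (median 13.7). High MB pigs 2 and 3 were above every Low MB pig, and all 6 High MB pigs were above the Low MB median. The log2 fold change was 0.33 (SE 0.17, 95% interval -0.04 to 0.70, edgeR adjusted p = 0.606, exact permutation p = 0.106), and 0.16 without High MB pig 2. ME1 (ENSSSCG00000004454, chr1:82799878-82989895) encodes the cytosolic malic enzyme, a source of NADPH. Its level was 40.2 to 56.5 CPM in the High MB group (median 53.6) and 46.8 to 73.0 CPM in the Low MB group (median 53.4). The medians were close, and Low MB pigs 1 and 5 stood above every High MB pig, with a log2 fold change of -0.19 (SE 0.13, edgeR adjusted p = 0.705) that was -0.10 without Low MB pig 1 and -0.11 without High MB pig 2.

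Malonyl-CoA and palmitate are made by the next pair of enzymes. ACACA (ENSSSCG00000017694, chr12:38580916-38875067) encodes acetyl-CoA carboxylase alpha, the committed step of the pathway. It ranged from 7.85 to 18.9 CPM in the High MB group (median 10.3) and from 4.76 to 15.2 CPM in the Low MB group (median 8.48). High MB pig 3 was the highest of all pigs and Low MB pig 5 came next, and the log2 fold change of 0.36 (SE 0.27, edgeR adjusted p = 0.725) was within the spread between pigs. It was 0.16 without High MB pig 3, 0.23 without Low MB pig 1 and 0.59 without Low MB pig 5. In RefSeq another gene, C12H17orf78, lies inside ACACA on the other strand, and whether the counting used strand was not given in the sources used here.

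FASN (ENSSSCG00000029944, chr12:922405-937560) encodes fatty acid synthase. In the High MB group the lowest value was 19.7, the median 41.3 and the highest 134 CPM, and in the Low MB group the lowest was 11.6, the median 28.5 and the highest 196 CPM. The 1 Low MB pig at 196 CPM, pig 5, stood above every High MB pig, while the other 5 Low MB pigs reached at most 61.7 CPM. The log2 fold change was -0.13 (SE 0.64, 95% interval -1.50 to 1.24, edgeR adjusted p = 0.974), and its sign was not stable. Without Low MB pig 5 it was 0.84, and without High MB pig 3 it was -0.66. Within the deep libraries it was -0.83 (SE 0.85) and within the standard libraries 1.23 (SE 0.66), and the median of the High MB group lay above that of the Low MB group although the fold change was below 0.

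Palmitate is lengthened and desaturated by elongases and desaturases. ELOVL6 (ENSSSCG00000036236, chr8:112038670-112190079), which elongates palmitate to stearate, ranged from 3.94 to 13.7 CPM in the High MB group (median 6.60) and from 2.10 to 14.99 CPM in the Low MB group (median 4.05). Low MB pig 5 was the highest pig and Low MB pig 2 the lowest, so the Low MB group spanned the whole range. The log2 fold change was 0.34 (SE 0.44, edgeR adjusted p = 0.857), with -0.07 within deep and 1.20 within standard libraries. It was 0.82 without Low MB pig 5 and 0.11 without High MB pig 3, and between 0.17 and 0.22 without High MB pig 4 or Low MB pig 1, 2 or 3. ELOVL5 (ENSSSCG00000024149, chr7:46860768-46932945), an elongase of polyunsaturated fatty acids, ranged from 4.72 to 10.3 CPM in the High MB group (median 7.70) and from 1.91 to 8.86 CPM in the Low MB group (median 4.29). All 6 High MB pigs were above the Low MB median and 2 of them, pigs 2 and 3, above every Low MB pig. It had the smallest edgeR p-value of the 10 genes, 0.0648, with a log2 fold change of 0.64 (SE 0.32, 95% interval -0.04 to 1.32), an adjusted p of 0.597 and an exact two-sided permutation p of 0.0714. The log2 fold change of ELOVL5 was 0.35 (SE 0.57) within deep and 0.99 (SE 0.31) within standard libraries. It was 0.47 without Low MB pig 1 and 0.91 without Low MB pig 5.

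SCD (ENSSSCG00000010554, chr14:111461560-111478033) encodes stearoyl-CoA desaturase, which makes oleic from stearic acid. It ranged from 18.5 to 121 CPM in the High MB group (median 33.9) and from 7.85 to 124 CPM in the Low MB group (median 19.0). High MB pigs 3 and 4 (121 and 91.5 CPM) and Low MB pig 5 (124 CPM) stood apart from the other 9 pigs, which reached at most 39.4 CPM. The log2 fold change was 0.55 (SE 0.64, 95% interval -0.82 to 1.92, edgeR adjusted p = 0.841, exact permutation p = 0.253). It was 0.32 (SE 0.93) within the deep and 1.22 (SE 0.72) within the standard libraries. It was 1.48 without Low MB pig 5, 0.14 without High MB pig 3, and 0.33 to 0.36 without High MB pig 4 or Low MB pig 1 or 2.

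The last step of triglyceride synthesis is shared by a pair of unrelated enzymes. DGAT1 (ENSSSCG00000005918, chr4:452890-463665) ranged from 48.9 to 62.2 CPM in the High MB group (median 55.4) and from 53.8 to 67.9 CPM in the Low MB group (median 57.9). Its levels varied little, and the log2 fold change of -0.12 (SE 0.10, 95% interval -0.32 to 0.09, edgeR adjusted p = 0.754) was the most narrowly bounded of the 10, and was -0.06 without High MB pig 2 and -0.07 without Low MB pig 1. DGAT2 (ENSSSCG00000034102, chr9:10032163-10066082) ranged from 2.52 to 12.6 CPM in the High MB group (median 6.16) and from 0.725 to 8.21 CPM in the Low MB group (median 2.86). High MB pigs 2 and 3 were above every Low MB pig, and Low MB pigs 1 and 2 were the lowest. Its log2 fold change was the largest of the 10, 0.85 (SE 0.52, 95% interval -0.25 to 1.96, edgeR adjusted p = 0.653, exact permutation p = 0.117). It was 0.55 (SE 0.68) within deep and 1.18 (SE 0.70) within standard libraries, 0.58 without High MB pig 2 and 1.27 without Low MB pig 5. The fewest reads of any member in a library were the 29 counts of DGAT2 in Low MB pig 2.

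SREBF1 (ENSSSCG00000033626, chr12:60733967-60750951) encodes SREBP-1, the sterol regulatory element binding protein that activates lipogenic genes once cleaved from its membrane-bound precursor. It ranged from 25.6 to 72.4 CPM in the High MB group (median 42.3) and from 23.8 to 55.2 CPM in the Low MB group (median 42.85). High MB pigs 3 and 5 were above every Low MB pig, but High MB pigs 1 and 2 were near the bottom, and the log2 fold change was 0.19 (SE 0.25, edgeR adjusted p = 0.860), with -0.11 within deep and 0.54 within standard libraries. Without High MB pig 3 it was 0.0018 and without High MB pig 2 it was 0.33, the ends of the range with single pigs left out. RNA levels do not report how much of the protein was cleaved.

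**Figure D2:**
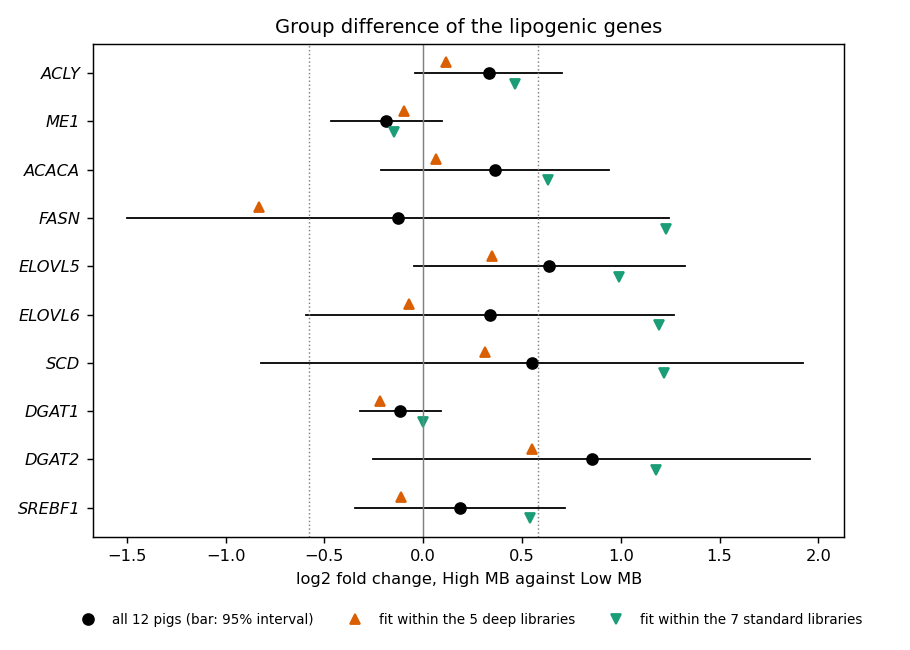
Log2 fold change of each gene, High MB against Low MB, with its 95% interval over 12 pigs (black) and the fits within 5 deep and 7 standard libraries (triangles), and dotted lines at 0.58 on either side. Every interval crosses 0, from -0.25 to 1.96 for DGAT2 and from -0.32 to 0.09 for DGAT1, and FASN lies on opposite sides of 0 in the depth classes.

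Single pigs held high or low levels of several genes at the same time. High MB pig 3 and Low MB pig 5 were each among the 3 highest pigs for 8 of the 10 genes. Low MB pig 2 was among the 3 lowest for 8 genes, and Low MB pigs 1 and 3 for 7 genes each. The highest and the lowest pigs of the set thus both included Low MB pigs.

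Correlations of log2 CPM over the 12 pigs were computed for all 45 pairs of the genes, with permutation p-values from 100000 pairings and Benjamini-Hochberg adjustment over the pairs. An adjusted p under 0.05 was found for 17 pairs by Pearson's r and for 19 by Spearman's rho. SCD, FASN, ACACA, ELOVL5, ELOVL6 and DGAT2 formed a block in which 15 of 15 pairs passed, with r from 0.73 to 0.91 and rho from 0.75 to 0.92. In that block r stayed between 0.62 and 0.85 without the 2 pigs farthest from the median of the gene on the x axis, between 0.47 and 0.97 within the High MB group, between 0.73 and 0.98 within the Low MB group and between 0.68 and 0.95 within the standard libraries. No correlation was taken within the deep class, which held 5 pigs. These are correlations of genes measured in the same libraries, and they were described after the block had been seen.

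By Pearson's r the closest pair was SCD and ELOVL6 (r = 0.91, permutation p = 7e-05, adjusted p = 0.00105, rho = 0.87, permutation p = 0.00052, adjusted p = 0.00334, and r = 0.84 without the 2 farthest pigs). ACACA with ELOVL5 followed at r = 0.91 (permutation p = 2e-05, adjusted p = 0.0009, rho = 0.90, permutation p = 0.00022, adjusted p = 0.00315, and r = 0.84 without 2 pigs). FASN with ELOVL6 reached r = 0.90 (permutation p = 7e-05, adjusted p = 0.00105, rho = 0.87, permutation p = 0.00043, adjusted p = 0.00323, and r = 0.83 without 2 pigs). ACLY passed only with ELOVL5 (r = 0.70, permutation p = 0.0114, adjusted p = 0.0302, rho = 0.85, permutation p = 0.00099, adjusted p = 0.00405, and r = 0.84 without 2 pigs) and with DGAT2 (r = 0.82, permutation p = 0.00069, adjusted p = 0.00456, rho = 0.93, permutation p = 4e-05, adjusted p = 0.00158, and r = 0.91 without 2 pigs). By rho the closest pairs were ACLY with DGAT2 and ELOVL5 with DGAT2 (0.92), and ACLY also passed with SCD and ACACA. Of the 24 pairs that involve ME1, DGAT1 or SREBF1, 0 passed by either measure, with r from -0.50 to 0.51. For SREBF1, r was 0.27 with FASN (permutation p = 0.395, adjusted p = 0.556, rho = 0.20, permutation p = 0.543) and 0.18 with SCD (permutation p = 0.572, adjusted p = 0.678, rho = 0.07, permutation p = 0.834). The 3 pigs with the most SREBF1 RNA were High MB pig 3 (72.4 CPM), High MB pig 5 (57.2 CPM) and Low MB pig 1 (55.2 CPM). They had 121, 18.5 and 11.2 CPM of SCD and 134, 24.4 and 16.3 CPM of FASN, so that the first was high for all 3 genes and the others were not.

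**Figure D3:**
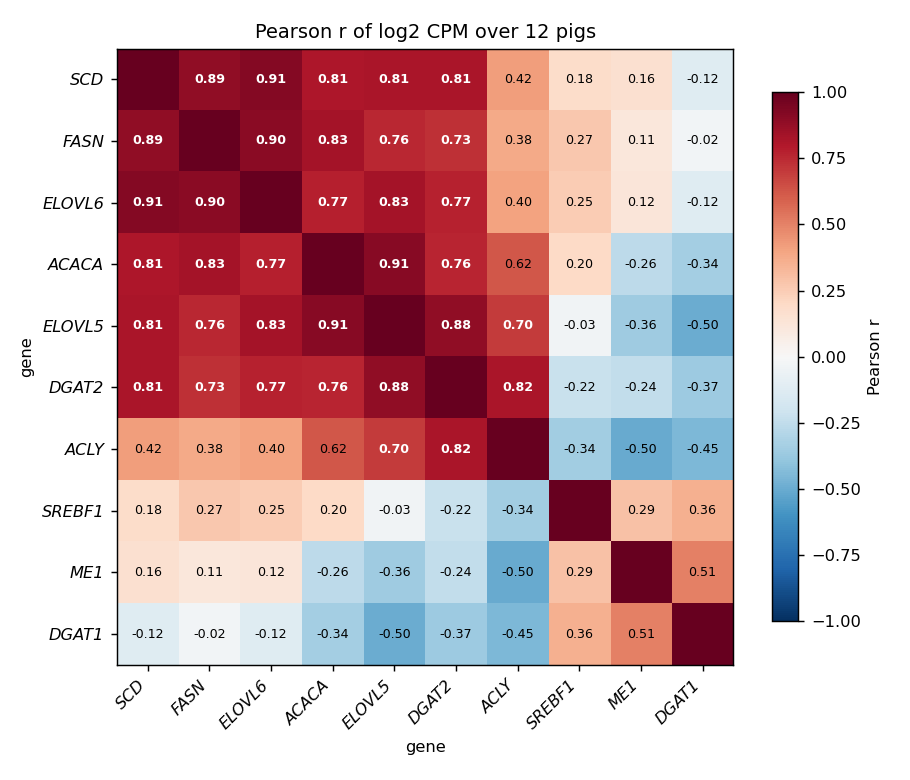
Pearson r of log2 CPM over 12 pigs for each pair of the 10 genes, coloured from -1 (blue) to 1 (red), with pairs at an adjusted p under 0.05 in bold. SCD, FASN, ELOVL6, ACACA, ELOVL5 and DGAT2 form a red block from 0.73 to 0.91, ACLY joins it through ELOVL5 and DGAT2, and the rows of SREBF1, ME1 and DGAT1 hold no value in bold.

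Levels of fat cell markers were compared with those of the 10 genes, and the outcome depended on which markers were summed. ADIPOQ, the adipocyte hormone adiponectin, ranged from 10.9 to 86.7 CPM in the High MB group and from 6.00 to 79.0 CPM in the Low MB group. The summed level of all 9 listed adipocyte markers was 379 to 779 CPM in the High MB group and 415 to 626 CPM in the Low MB group (exact permutation p = 0.225), but PLIN4, LIPE and FABP4 carried most of it, and muscle fibres also express PLIN4 and LIPE. With that sum, 0 of the 10 genes were correlated at an adjusted p under 0.05, the smallest being 0.293 for SCD (r = 0.61, permutation p = 0.0360, rho = 0.64, permutation p = 0.0285, and r = 0.78 without the 2 farthest pigs).

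A sum of 4 of the 9 markers, ADIPOQ, LEP, PLIN1 and CIDEC, was chosen from background knowledge after the data had been seen. The sum leaves out FABP4, TRARG1, PLIN4, LIPE and RETN, the last of which was below the filter on low counts. Taken one by one, FABP4 had r from 0.51 to 0.89 and TRARG1 from 0.60 to 0.88 with the 6 genes of the block, of which 4 and 5 passed an adjusted permutation p under 0.05. PLIN4 had r from -0.06 to 0.34 and LIPE from -0.41 to -0.18 with them, and 0 passed. The 4-marker sum ran from 17.9 to 128 CPM in the High MB group (median 75.1) and from 9.45 to 122 CPM in the Low MB group (median 28.9, exact permutation p = 0.139). It was lowest in Low MB pig 2 (9.45 CPM) and highest in High MB pig 4 (128 CPM) and Low MB pig 5 (122 CPM). Against the 4-marker sum 6 of the 10 genes passed an adjusted p under 0.05, and they were the 6 of the block. ELOVL6 came first with r = 0.91 (permutation p = 4e-05, adjusted p = 0.0004, rho = 0.90, permutation p = 0.00018, adjusted p = 0.0018, and r = 0.86 without the 2 farthest pigs). ELOVL5 had r = 0.87 (permutation p = 0.00028, adjusted p = 0.0014, rho = 0.83, permutation p = 0.00121, and r = 0.81 without 2 pigs), and SCD had r = 0.84 (permutation p = 0.0008, adjusted p = 0.002, rho = 0.87, permutation p = 0.00052, and r = 0.72 without 2 pigs). DGAT2, FASN and ACACA followed at r = 0.84, 0.74 and 0.67 (permutation p = 0.00065, 0.00597 and 0.0168), with rho of 0.76, 0.71 and 0.66 (permutation p = 0.00525, 0.0128 and 0.0232) and r of 0.62, 0.56 and 0.55 without 2 pigs. For FASN the relation was closer in the Low MB group (r = 0.98) than in the High MB group (r = 0.34), a difference that was not tested. ACLY lay between, with r = 0.50 (permutation p = 0.0837, adjusted p = 0.120) and rho = 0.62 (permutation p = 0.0360, adjusted p = 0.0514). Its r was 0.13 within the High and 0.77 within the Low MB group. ME1, DGAT1 and SREBF1 had r = 0.02, -0.36 and -0.07 (permutation p = 0.959, 0.244 and 0.818, rho = 0.27, -0.17 and 0.03, permutation p = 0.406, 0.588 and 0.938).

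**Figure D4:**
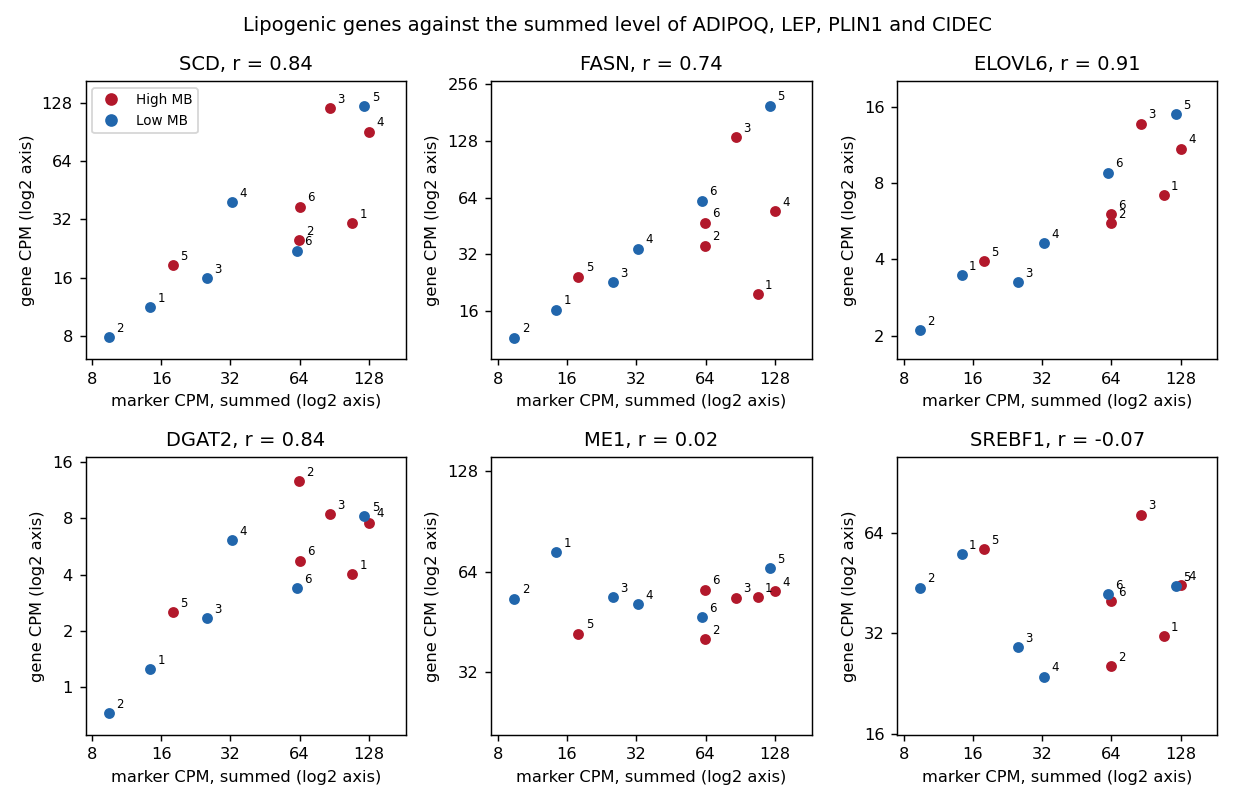
CPM of 6 of the genes against the summed CPM of ADIPOQ, LEP, PLIN1 and CIDEC (log2 axes) in the 12 pigs, red for High MB and blue for Low MB, with the pig's number. SCD, FASN, ELOVL6 and DGAT2 rise along the axis (r from 0.74 to 0.91), whereas ME1 and SREBF1 stay flat or scattered (r of 0.02 and -0.07).

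Taking the 4-marker level out of each gene by linear regression left 6 of the 45 pairs at an adjusted p under 0.05, of which 4 had passed before. These 4 were SCD with FASN (residual r = 0.73, adjusted permutation p = 0.0447), FASN with ELOVL6 (0.83, adjusted permutation p = 0.0033), ACACA with ELOVL5 (0.88, adjusted permutation p = 0.0033) and ACLY with DGAT2 (0.84, adjusted permutation p = 0.0033). The other two were ELOVL6 with SREBF1 (0.77, adjusted permutation p = 0.0368) and ME1 with ELOVL5 (-0.74, adjusted permutation p = 0.0447). Over the 15 pairs of the block the residual r ran from 0.03 to 0.88. With the level of all adipocyte markers taken out instead, 18 of the 45 pairs passed and the residual r of the block ran from 0.68 to 0.91, with 0.90 for SCD with FASN. With the 4-marker level as a covariate in edgeR, the log2 fold change of SCD went from 0.55 to -0.06 and that of ELOVL6 from 0.34 to -0.17, that of DGAT2 from 0.85 to 0.33 and that of ELOVL5 from 0.64 to 0.27. That of FASN went from -0.13 to -0.46, that of ACACA from 0.36 to 0.12 and that of ACLY from 0.33 to 0.23. That of ME1 went from -0.19 to -0.24 and that of SREBF1 from 0.19 to 0.26, with 0 of the 10 genes called. With the level of all adipocyte markers as the covariate the values were 0.07 for SCD, -0.02 for ELOVL6, 0.67 for DGAT2, 0.47 for ELOVL5, -0.45 for FASN and 0.25 for ACACA. ME1 was then at -0.30, with an edgeR adjusted p of 0.480, and was the 1 gene of the 10 with an unadjusted p under 0.05, beside 3.96% of all genes lower at that limit.

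The rest of the pathway was read from lists of genes grouped by role. Of 9 other genes of acetyl-CoA and NADPH supply, 8 had a log2 fold change above 0 (median 0.14), and 1 had an unadjusted p under 0.05. That gene was PGD, a dehydrogenase of the pentose phosphate pathway, at 9.93 CPM in the High MB and 6.09 CPM in the Low MB group (log2 fold change 0.70, SE 0.30, edgeR adjusted p = 0.570). PGD ranged from 6.26 to 20.8 CPM in the High MB group (SD 5.42) and from 4.19 to 9.80 CPM in the Low MB group (SD 2.24). Of 10 other genes of fatty acid synthesis and elongation, 5 were above and 5 below 0 (median 0.01), and 1 had an unadjusted p under 0.05 by edgeR (2 of the 12 listed by DESeq2), the elongase gene ELOVL7 (5.15 against 3.11 CPM, log2 fold change 0.72, SE 0.20, edgeR adjusted p = 0.563).

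Desaturases other than SCD all lay above 0. The 4 tested had a median log2 fold change of 0.51, and 2 had an unadjusted p under 0.05, FADS2 (10.6 against 6.89 CPM, log2 fold change 0.62, SE 0.21, edgeR adjusted p = 0.563) and SCD5 (0.969 against 0.551 CPM, log2 fold change 0.80, SE 0.35, edgeR adjusted p = 0.576). FADS2 encodes the delta-6 desaturase that works with ELOVL5 on polyunsaturated fatty acids, and SCD5 is a second stearoyl-CoA desaturase gene. Of 12 genes of glycerolipid assembly, 5 were above and 7 below 0 (median -0.04), of 15 other regulators of lipogenesis 7 and 8 (median -0.0014), and of 12 genes of sterol synthesis, another target pathway of the SREBP proteins, 7 and 5 (median 0.05), and 0 of these 39 genes had an unadjusted p under 0.05 by edgeR or DESeq2. By either tool 0 genes of the pathway lists were called, beside the 0.0% of all genes by edgeR.

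Most cell type markers also had fold changes above 0. Of 8 adipocyte markers tested 7 were above 0 (median 0.87), and FABP4 (89.3 against 44.6 CPM, edgeR adjusted p = 0.563) and CIDEC (6.40 against 3.41 CPM, edgeR adjusted p = 0.566) had an unadjusted p under 0.05. Mean levels in the High and Low MB groups were 52.4 and 29.1 CPM for ADIPOQ, 3.00 and 1.42 CPM for LEP, 16.3 and 10.4 CPM for PLIN1, 15.9 and 7.47 CPM for TRARG1, 335 and 316 CPM for PLIN4 and 72.9 and 87.7 CPM for LIPE, while RETN was below the filter on low counts. All 5 macrophage markers lay above 0 (median 0.98), and 4 had an unadjusted p under 0.05, CD163 (10.7 against 5.04 CPM), CSF1R (24.9 against 16.4 CPM), MRC1 (5.44 against 2.76 CPM) and AIF1 (2.49 against 1.15 CPM), each with an edgeR adjusted p of 0.563, where 5.33% of all genes were higher at that limit. The sum of the macrophage markers was 31.6 to 90.95 CPM in the High MB (median 40.8) and 19.2 to 39.5 CPM in the Low MB group (median 25.5, exact permutation p = 0.0303). The highest High MB values were 27.8 CPM for CD163, 35.8 for CSF1R, 12.2 for MRC1 and 5.79 for AIF1, well above the group means. All 5 fibroblast markers lay above 0 (median 0.64, sum 533 to 944 against 275 to 707 CPM, exact permutation p = 0.0541), and 2 had an unadjusted p under 0.05, COL1A1 (144 against 91.0 CPM, edgeR adjusted p = 0.578) and PDGFRA (5.14 against 2.74 CPM, edgeR adjusted p = 0.563). PDGFRA ranged from 2.55 to 11.5 CPM in the High MB and from 1.29 to 3.99 CPM in the Low MB group. The 4 endothelial markers had a median of 0.26 (sum 114 to 157 against 70.1 to 175 CPM, exact permutation p = 0.149) and the 3 muscle fibre markers a median of -0.17 (sum 32157 to 73680 against 55658 to 102900 CPM, exact permutation p = 0.429). The lowest High MB sum of the muscle fibre markers lay far below that group's median of 67861 CPM. Fold changes of the markers with single pigs left out are not given here. The part of these cell types in the fold changes of the lipogenic genes was tested only through the adipocyte covariates above.

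**Figure D5:**
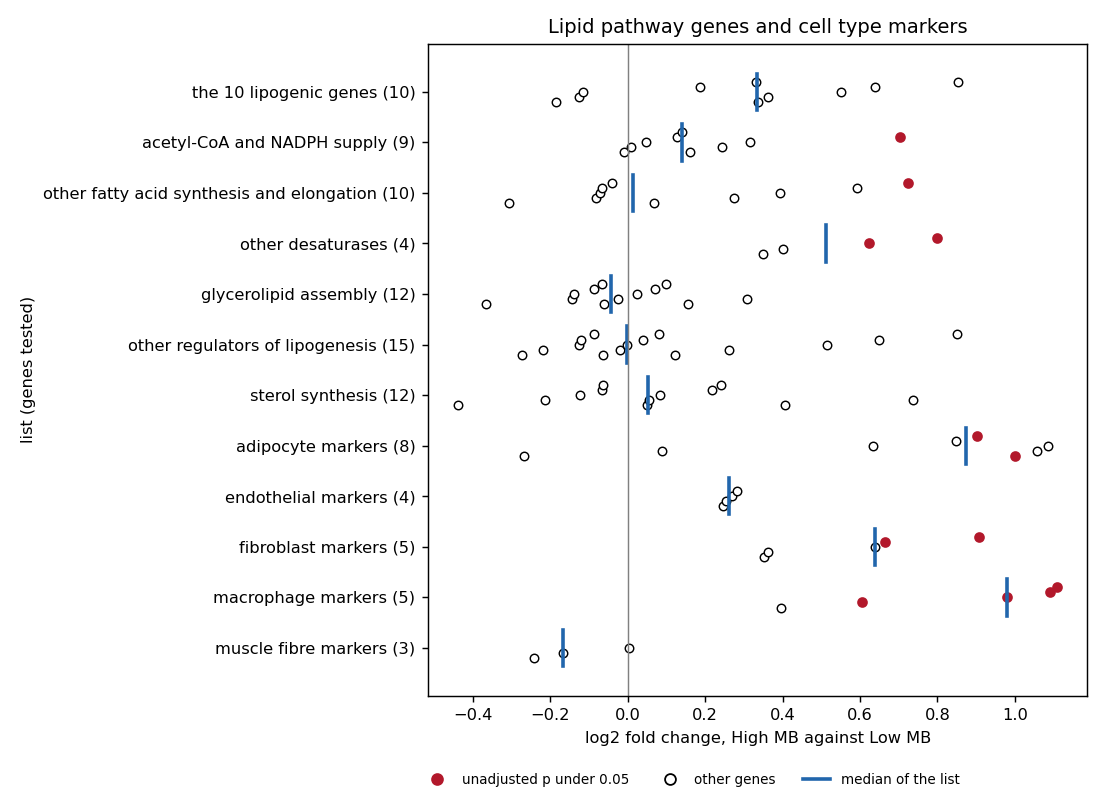
Log2 fold change, High MB against Low MB, of each tested gene of the lists (circles, red at an unadjusted p under 0.05), with the median of each list as a blue bar and the number of genes tested after its name. The 10 lipogenic genes have a median of 0.33, the adipocyte and macrophage markers lie farthest to the right (0.87 and 0.98), and glycerolipid, regulator and sterol genes centre near 0.

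For each member, genes among the 3 most alike over the 12 pigs were found by Pearson's r of log2 CPM among all other tested genes with a symbol, as a description. SCD was closest to THRSP (r = 0.96), known as a lipogenesis factor responsive to thyroid hormone, then LGALS12 (0.93) and PPARG (0.90), the adipocyte master regulator. Near FASN were THRSP (0.88) and EPB41L4B (0.87), and ELOVL6 was closest to ALDOC (0.95), PLIN1 (0.93) and PPARG (0.92). DGAT2 was closest to CEBPA (0.94), another transcription factor of adipocytes, BEND3 (0.91) and SERINC3 (0.90), and ELOVL5 to MGST1 (0.98), SORL1 (0.93) and CLMP (0.93). Near ACACA were USP6NL (0.90) and the pentose phosphate enzyme TKT (0.89), and ACLY was closest to PGD (0.96), PLAUR (0.95) and ARF6 (0.94). Outside the block, ME1 was closest to ACP2 (0.95) and ABCF2 (0.92), and SREBF1 to ETV2, FUT2 and TSPAN17 (0.95, 0.95 and 0.94). DGAT1 was closest to HSF1 (0.90), VPS4A (0.88) and MAPKAP1 (0.85). In RefSeq the genes DGAT1 and HSF1 overlap by 135 bases at their ends on opposite strands (chr4:463531-463665), so reads there could be shared between them.

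Within each group of 6 pigs, the genes were compared with muscle myoglobin. Of 20 correlations of log2 CPM with myoglobin content, 10 genes in each group, 0 had an exact permutation p under 0.05 unadjusted. The strongest was that of SREBF1 in the Low MB group (r = -0.60, exact permutation p = 0.2125, rho = -0.43, exact permutation p = 0.419, adjusted p = 1.0, and r = -0.49 without the 2 farthest pigs). Without the 2 pigs farthest from the median of myoglobin, the 6 genes of the block had r from -0.62 (FASN) to -0.96 (ELOVL5) over the 4 High MB pigs left, where r over all 6 had been -0.24 for FASN and 0.05 for ELOVL5. Those 4 High MB pigs had 2.459, 2.476, 2.485 and 2.544 mg/g of myoglobin. Over the 4 Low MB pigs left, r of the block ran from -0.0047 (DGAT2) to -0.63 (ELOVL6). The r values of 4 pigs were not tested in either group. No correlation was taken over both groups together, because they are separate clusters of myoglobin content.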

How the data were processed

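Loin RNA of 12 Iberian pigs was sequenced in paired reads with 1 library per pig. Per the labels, the authors used FastQC, Trim Galore, HISAT2 and HTSeq with Sscrofa11.1, and they deposited raw counts per gene without normalization. The annotation release and the strand setting were not given in the sources used here. The tables of counts per transcript were not used.

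Groups were taken from the labels. Genes were tested with edgeR 4.0.16 in R 4.3.3 (TMM factors, filterByExpr, quasi-likelihood test, High MB against Low MB, no covariate), and DESeq2 1.42.0 was an alternative. Standard errors came from the test statistic, and log2 CPM used a prior count of 2. Single values were compared by exact two-sided permutation of the 924 splits into 6 and 6, which can give no p under 0.00216. Correlations used 100000 pairings (SciPy 1.17.1), whose smallest possible p is 1e-05. The depth classes were split between 40001432 and 59227608 gene counts, and intervals from depth would cover counting error only. Symbols came from the gene table of the reference, which named 14857 of the listed genes. Positions and promoters came from RefSeq Sscrofa11.1. The steps were tested on simulated data.

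The members and the lists were chosen with earlier results of these data known. The text names the members, list genes with an unadjusted p under 0.05, adipocyte markers and, for each member, the 3 most correlated genes, of which some are not reported here. TKT, ACTA1, CKM and DES, which belong to the lists, were also named after their values were seen.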

Additional observations from a re-analysis of the deposited data

Results flagged for a closer look

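ACLY in High MB pig 2 lay far from the other 5 High MB pigs. Its level was 29.2 CPM, and its gap to the nearest pig was 0.680 of the range of the group in log2 CPM, above Dixon's 95% critical value for 6 samples. It was the only such pig in 20 groups examined (10 genes in each group), and chance marks about 1 in 20. The log2 fold change of ACLY was 0.33 with this pig and 0.16 without it. The library had the highest TMM factor of the 12 (1.21), and this pig was also the highest for DGAT2. The part of the scaling in these levels was not tested.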

How the results depend on the processing

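Alternatives were other size factors (RLE), DESeq2, no filter on low counts, a covariate for depth class, a block for the pig number, each pig left out in turn, another prior count, and deviations from group or depth class means. Those using adipocyte levels, and those leaving out High MB pig 2 with Low MB pig 4 or High MB pig 3 together with Low MB pig 5, were chosen after seeing the data. The 10 genes were called in 0 of these fits, and the number of all genes called went from 0 to 29 with DESeq2 only. FASN changed sign, with log2 fold changes of 0.40 with the depth class, 0.38 with the replicate block, 0.33 without High MB pig 3 and Low MB pig 5, and -0.66 to 0.84 with single pigs left out, where removing High MB pig 1 gave 0.04 and High MB pig 5 gave 0.02. ELOVL6 changed sign to -0.017 with the level of all adipocyte markers and to -0.17 with ADIPOQ, LEP, PLIN1 and CIDEC, and SCD to -0.065 with the latter. With the replicate block and the depth class these genes moved the other way, SCD from 0.55 to 1.05 and 0.83 and ELOVL6 from 0.34 to 0.59 and 0.65. Without High MB pig 3 and Low MB pig 5, SCD was 1.10, ELOVL6 0.61 and SREBF1 0.06 (0.19 with all pigs), and DGAT1 was -0.06 without High MB pig 2 and Low MB pig 4 (-0.12 with all pigs). The cause was not tested. The other 7 genes kept their sign under each of these alternatives that gave a fold change. The other prior count and the deviations from means were used for correlations only. Within the deep libraries alone, SREBF1 was at -0.11.

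The 17 correlated pairs became 6 on residuals of the 4-marker level but 18 on those of all adipocyte markers, where the block kept r of 0.68 to 0.91, and ranged from 14 to 21 with single pigs left out and were 13 with pig 3 of the High and pig 5 of the Low MB group removed. The 0 genes correlated with the adipocyte level became 6 with those 4 markers alone. The replicate block called 0 genes. Same-numbered pigs did not deviate together (r from -0.21 to 0.14, and 0 of 6 High MB pigs closest to their own number), so the pairing is by number only. The 95% intervals of FASN, SCD, ELOVL5, ELOVL6 and DGAT2 reached from below 0 to over 1 on the log2 scale, with at least 29 counts for every member in every pig.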
